A study of Arabidopsis thaliana with 3 samples.

Results

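UDP-glycosyltransferases (UGTs) are enzymes that move a sugar from a UDP-linked donor onto small molecules. In plants they act on hormones, salicylic acid, flavonoids, lignin precursors and foreign chemicals, and the sugar usually changes how soluble, stable or active the acceptor is. Many of their genes arose by local duplication and lie side by side in the genome, in so-called tandem arrays. The UGT genes described here are the 58 of 27432 nuclear protein-coding genes of Arabidopsis thaliana whose symbol in the RefSeq gene table (assembly TAIR10.1) is UGT followed by a number. They were sorted by the family number in the symbol into the phylogenetic groups used for plant UGTs. Group E holds 15 genes, L 13, D 10, H 8, G 6 and F 3, while B and J hold 1 each and UGT80B1 is a sterol UGT outside these groups. No symbol fell in groups A, C, I, K, M or N.

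The study mapped where AtDEK2, a chromatin protein that the series title ties to histone marks and immunity, sits in the genome of 14-day-old seedlings. The tag was pulled down with an antibody to GFP that binds YFP as well, from dek2-1 mutants carrying a DEK2-YFP fusion driven by the DEK2 promoter, with 2 immunoprecipitates that each have their own peak list. All samples, the 1 input included, share this genotype, so no comparison of genotypes or treatments is possible here, and a pull-down from untagged plants was not analysed here. Nothing in the labels says that the replicates came from separately grown plants, so differences between them may be technical.

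Replicate 1 lists 25742 peaks with a median width of 465 bp and replicate 2 lists 13307 with a median width of 259 bp. Read depth is not given, but the peak values imply a median background of 64.8 fragments at a peak in replicate 1 (after any scaling) and 25.2 in replicate 2. More reads bring weaker enrichment past the threshold, so a gene with a peak in replicate 1 alone is not shown to differ from one with peaks in both. A peak was called shared when a replicate 1 peak and a replicate 2 peak overlapped by at least 50% of the shorter, which held for 10812 peaks. A gene was counted when the summit, the highest point of a peak, lay inside the gene or within 500 bp of either end. Fold enrichment is the authors' own ratio for each peak, its summit height over a modelled background. Peak coordinates are TAIR10, counted from 1. The gene table gives no strand, so the start of a gene cannot be told from its end, and ends are called lower or higher by coordinate.

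The UGT genes carried DEK2-YFP peaks about as often as other genes of their length. A shared peak was found at 22 of the 58 genes (37.9%, 95% Wilson interval 26.6 to 50.8), against 34.2% of all protein-coding genes and 35.5% of the other genes when weighted to the lengths of the UGT genes. Replicate 1 had a summit at 41 of them (70.7%, 58.0 to 80.8), against 66.7% of all genes and 70.3% at matched length. Replicate 2 had a summit at 22 (37.9%), against 37.0% of all genes and 38.4% at matched length. The 22 genes with a replicate 2 summit were those with a shared peak, and summits of both replicates were likewise seen at 22 (background 35.3%). Of the others, 19 had a summit in replicate 1 alone, none in replicate 2 alone, and 17 had none in either list. These shares are descriptions without a test, and the intervals cover counting error only, with members treated as if they were independent.

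The strength of the peaks was also close to that elsewhere. The best shared peak of the 22 genes had a median fold enrichment of 2.18 in replicate 1 (range 1.45 to 3.13) and 2.02 in replicate 2 (1.65 to 4.07). Over all genes with a shared peak the medians were 2.12 and 2.04. Taking the best summit of each gene in replicate 1, the 22 genes lay between 1.72 and 3.13 (median 2.18) and the 19 genes seen in replicate 1 alone between 1.49 and 2.21 (median 1.72). The ranges of these sets overlap. Peaks at UGT genes had a median width of 656 bp in replicate 1 and 241 bp in replicate 2, against 599 and 274 bp for all shared peaks.

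**Figure D1:**
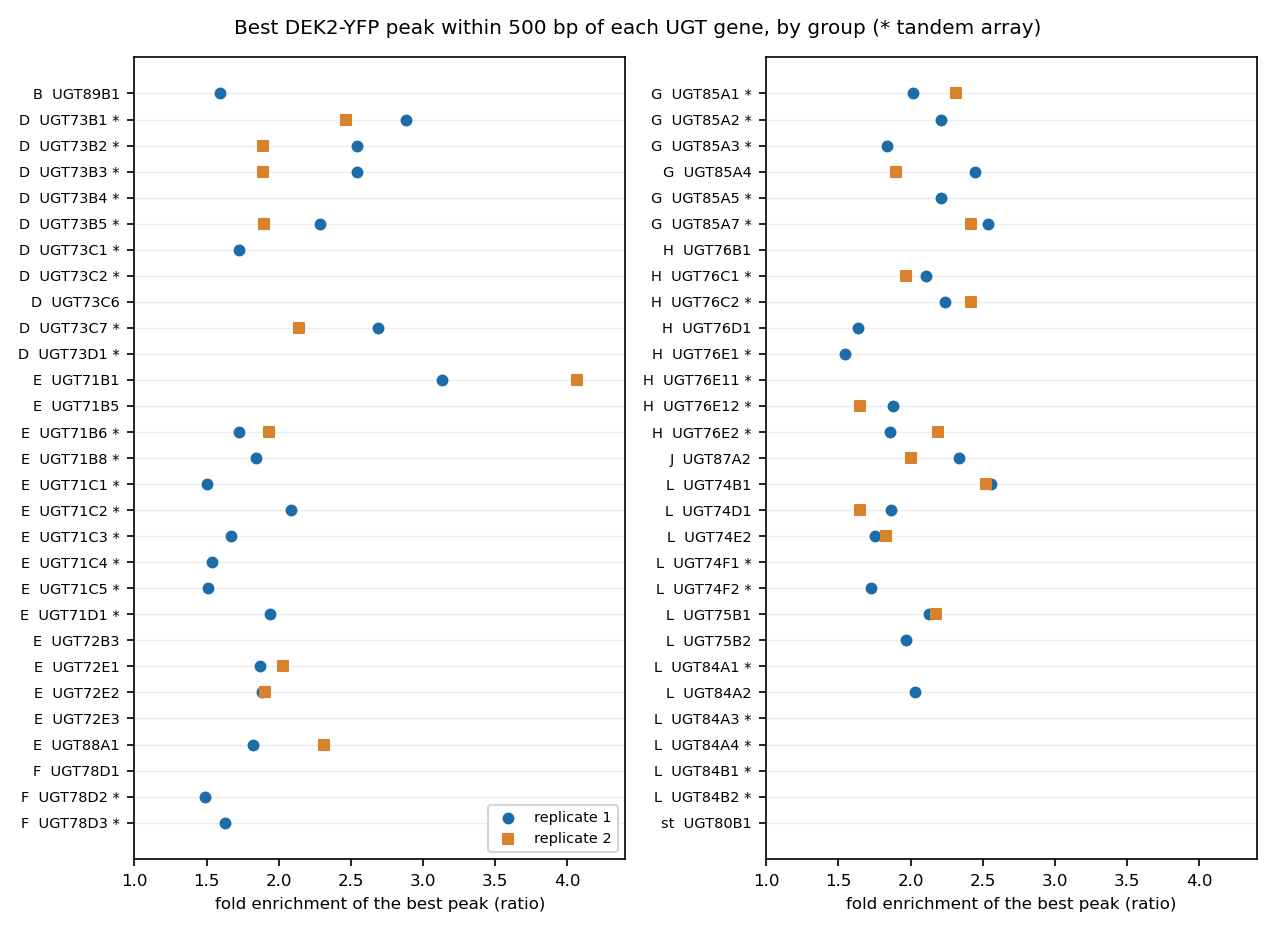
Fold enrichment (a ratio, horizontal axis) of the best peak within 500 bp of each of the 58 UGT genes in replicate 1 (circles) and replicate 2 (squares), ordered by group letter, with stars for tandem-array members and no point where no peak is listed. Most points lie below 2.5, UGT71B1 of group E stands highest in both replicates, and the genes of the UGT84 family other than UGT84A2 have no point.

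UGT71B1 (AT3G21750, group E) carried the strongest peak near any UGT gene. It lies on chromosome 3 from 7663452 to 7664226 and reached a fold enrichment of 3.13 in replicate 1. Its match in the second list reached 4.07 and ranked 16 of all 13307 peaks. Of the 9374 genes with a shared peak 34 had a better one, judged by the worse of the ranks within the replicates. The summit, however, lay 414 bp outside UGT71B1 and 167 bp inside its neighbour APO4, so the peak cannot be given to UGT71B1 alone. A weaker shared peak, with 1.42 and 1.99, had its summit 271 bp inside UGT71B1 itself.

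UGT74B1 (AT1G24100, group L) encodes the glucosyltransferase of the glucosinolate core pathway, which makes the sulfur-linked glucosides typical of cabbage relatives. Its peak on chromosome 1 from 8524941 to 8525639 had 2.56 and 2.52 in replicates 1 and 2, so the replicates were nearly equal. The summit lay 126 bp beyond the lower end and 279 bp from the neighbour AT1G24095, and the summits of the replicates were 7 bp apart. UGT85A4 (AT1G78270, group G) had 2.45 in replicate 1 with the summit 45 bp inside, on chromosome 1 from 29449520 to 29450786. That peak is 1267 bp wide, and its stronger match in replicate 2 (2.38) had its summit outside the window of UGT85A4, where a separate replicate 2 peak of 1.898 lay 92 bp inside the gene. UGT87A2 (AT2G30140, group J), a gene that affects flowering time, had 2.33 and 2.00, with the summit 99 bp outside on chromosome 2 from 12871454 to 12872169.

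The genes were next ordered by the acceptors of their enzymes, for 25 genes on a list of known roles that is not complete. Among 9 UGTs that act on hormones 6 carried a shared peak (66.7%, 35.4 to 87.9), against 35.6% of other genes at matched length. The matched share lies just inside this interval. The list was drawn up after the peak lists had been opened, and the difference was not tested. UGT76C2 and UGT76C1, which add glucose to cytokinins, are neighbours on chromosome 5. UGT76C2 (AT5G05860) had a peak from 1764621 to 1765545 with 2.24 and 2.42 and its summit 10 bp inside the lower end, where the replicate summits were 1 bp apart. The same gene had a peak from 1767112 to 1767760, with 2.11 and 1.97, whose summit lay 28 bp inside UGT76C2 and 148 bp outside UGT76C1. UGT76C1 (AT5G05870) was counted through that peak alone, and a further replicate 1 peak of 2.07 inside UGT76C1 had no match in replicate 2.

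UGT85A1 (AT1G22400), which makes O-glucosides of the cytokinin zeatin, had a peak deep in the gene, 1331 bp from the nearer end, on chromosome 1 from 7904805 to 7905249 with 2.02 and 2.32. UGT74D1 (AT2G31750), which acts on auxins, likewise had its summit 1324 bp inside, with 1.76 and 1.65. These were the only member summits over 500 bp from both ends among the shared peaks. Shared summits that deep were found among all protein-coding genes as well. UGT74E2, which acts on the auxin precursor indole-3-butyric acid, had 1.75 and 1.83 with the summit 312 bp outside. UGT71B6, which acts on abscisic acid, had 1.47 and 1.93 from a summit 470 bp outside and 171 bp inside AT3G21790. UGT71C5, another abscisic acid UGT, had peaks in replicate 1 alone (1.51 and 1.40), and UGT84B1 and UGT73C6, which act on auxin and brassinosteroids, had none.

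None of the 4 genes of salicylic acid and related defence signals carried a shared peak (0%, 0 to 49.0), against 34.1% at matched length. UGT74F2 (AT2G43820), which makes salicylic acid glucose ester, had replicate 1 peaks of 1.73 and 1.59 and none in replicate 2. UGT71C3, which acts on methyl salicylate, had replicate 1 peaks of 1.67 and 1.54. UGT74F1, which makes salicylic acid 2-O-glucoside, and UGT76B1, which acts on isoleucic acid, salicylic acid and N-hydroxypipecolic acid, had no summit within 500 bp in either list. For both UGT76B1 and UGT74F2 a shared summit lay farther off. The one at UGT76B1 was 746 bp outside with 2.52 and 2.22, in the space towards its neighbour PIRL9, and the one at UGT74F2 was 775 bp outside with 1.83 and 1.76, within 500 bp of LSM6B. With 4 genes the interval is too wide to set this list apart from the background.

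Of 10 genes for flavonoids, sinapate and monolignols, 2 had a shared peak (95% interval of the share 5.67 to 51.0%, against 35.0% at matched length). UGT73C7, which acts on hydroxycinnamic acids and has a shared peak, was not on this list, and counting it would add 1 to both numbers. The 2 genes of the list with a shared peak belong to the monolignol UGTs, which glucosylate lignin precursors. UGT72E2 (AT5G66690) had 1.885 and 1.902 from a summit 319 bp outside, on chromosome 5 from 26626734 to 26627395. UGT72E1 (AT3G50740) had 1.48 and 2.03 with the replicate 1 summit 248 bp inside and that of replicate 2 70 bp outside. UGT72E3, the closest relative of UGT72E2, had no peak in either list.

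None of the 3 flavonol genes of group F carried a shared peak (0%, 0 to 56.15, against 35.2% at matched length). A replicate 1 summit lay at 2 of them (66.7%, against 70.5%). With 3 genes the interval is too wide to set this group apart from the background. UGT78D2, a flavonol and anthocyanin 3-O-glucosyltransferase, had 1.49 in replicate 1, UGT78D3, a flavonol arabinosyltransferase, had 1.63, and UGT78D1, a flavonol rhamnosyltransferase, had none. UGT84A2 (AT3G21560), the main sinapate glucosyltransferase, had replicate 1 peaks of 2.03 and 1.86 and none in replicate 2. Its relatives UGT84A1, UGT84A3 and UGT84A4, which also esterify hydroxycinnamates, had no summit. UGT80B1 (AT1G43620), a sterol glucosyltransferase, is the longest UGT gene with no listed summit, at 4876 bp.

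By group, shared peaks were found at 5 of 10 genes in D, 3 of 6 in G, 4 of 8 in H, 5 of 15 in E, 4 of 13 in L, 0 of 3 in F and the single gene of J. The matched-length shares for the groups D, G, H, E, L and F ran from 34.4% to 38.6%, and each group's own interval contained its matched share. Replicate 1 summits lay at all 6 genes of group G (matched-length share 74.4%), 12 of 15 in E (69.8%) and 7 of 13 in L (68.9%), and these matched shares too lay inside the groups' intervals. UGT89B1, the only member of B, had 3 replicate 1 peaks of at most 1.60 and none in replicate 2.

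Tandem arrays were set against single genes next. Members on 1 chromosome with at most 1 other protein-coding gene between neighbours formed 15 arrays with 37 genes, namely 10 pairs, 4 triplets and the 5 genes of UGT85A7 to UGT85A1. The remaining 21 genes stood alone by this rule, which treats UGT genes listed under another symbol as other genes. UGT73C6, for example, counts as single although it lies beside DOGT1, which is UGT73C5 by synonym. A shared peak was near 12 of 37 array genes (32.4%, 19.6 to 48.5, against 35.2% at matched length) and 10 of 21 single genes (47.6%, 28.3 to 67.6, against 36.0%). In replicate 1, 27 array genes (72.97%, against 69.8% at matched length) and 14 single genes (66.7%, against 71.4%) had a summit, both near the share of all genes given above. With genes named UGT by synonym included, the counts were 12 of 39 in arrays (30.8%) and 14 of 25 single (56.0%). A UGT gene named by neither symbol nor synonym would still count as another gene. Genes called single are therefore single by these names only. The intervals of the main counts overlap, and the difference between arrays and single genes was not tested.

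Many of the peaks near array genes lay nearer to another gene, in some cases another UGT gene. When a summit was counted only for its nearest protein-coding gene, 6 of 37 array genes kept a shared peak (16.2%, against 28.5% at matched length). The single genes stayed at 10 of 21 (47.6%, against 29.1%). By this rule the summit of UGT73B3 went to UGT73B2 and that of UGT76C1 to UGT76C2. Part of the drop is thus a shift between UGT genes, and the contrast was not tested. With summits inside the gene only, the counts were 4 of 37 (10.8%, 4.29 to 24.7, against 15.5%) and 6 of 21 (28.6%, 13.8 to 50.0, against 16.1%). Over all 58 genes, 10 had a shared summit inside (17.2%, 9.64 to 28.9), against 15.3% of all genes and 15.7% at matched length. Some arrays hold near-identical copies, and the handling of reads that match several places was not given in the sources used here.

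**Figure D2:**
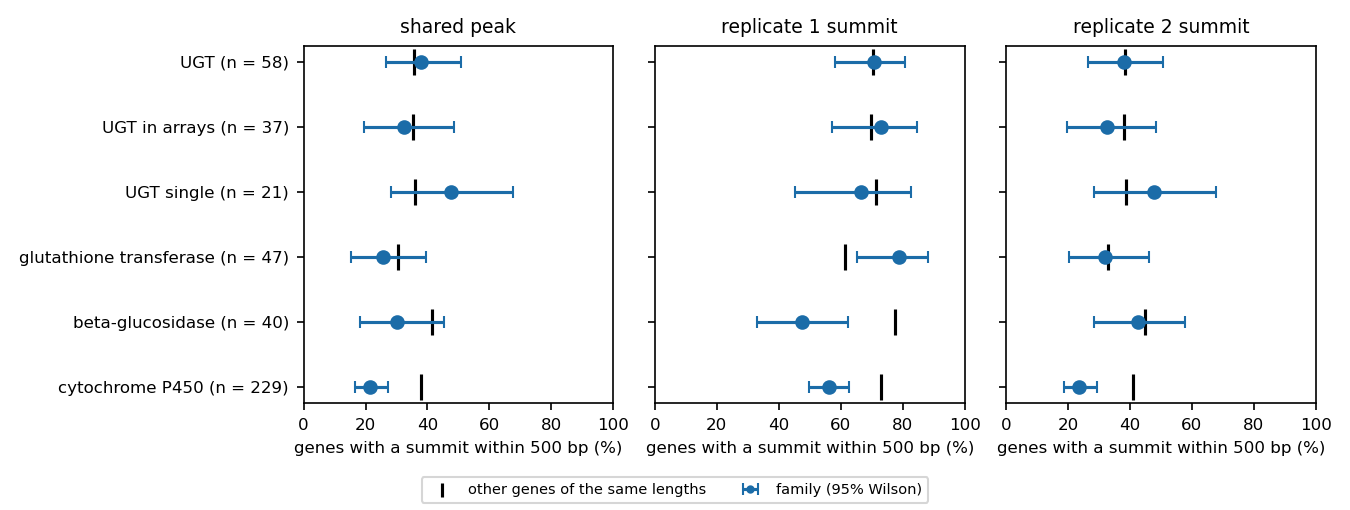
Percentage of genes with a summit inside or within 500 bp (horizontal axis) for all UGT genes, array and single UGT genes and 3 other families. Circles with bars are shares with 95% Wilson intervals and upright ticks are the share of other genes weighted to the same lengths. The ticks fall inside the intervals of all 3 UGT rows in each panel, and the cytochrome P450 share lies left of its tick in each.

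Arrays differed among themselves in how many of their genes had a peak. Of the 15, 8 held a gene with a shared peak, but every member was covered in 2 of these, UGT76C2-UGT76C1 and UGT73B3-UGT73B2-UGT73B1. The 7 others had no replicate 2 summit at any member. In 5 of them replicate 1 alone had summits at members, and UGT84B2-UGT84B1 and UGT84A1-UGT84A3-UGT84A4 had no summit of either list within 500 bp of their whole span. These empty arrays span 3.63 and 9.88 kb. Runs of neighbouring genes elsewhere were not counted, so the array counts have no background beside them. Gene by gene, the share of array members with a shared peak (32.4%) was near the matched-length share of 35.2%.

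The longest array, UGT85A7 to UGT85A1 on chromosome 1, spans 16.7 kb with 5 genes. Replicate 1 placed 7 summits along it and every gene had at least 1. The replicate 2 list held 2 there, both shared. They stood at the outer genes, 182 bp outside the lower end of UGT85A7 (2.53 in replicate 1 and 2.42 in replicate 2, from 7889789 to 7890297) and inside UGT85A1 as given above. The middle genes UGT85A2, UGT85A5 and UGT85A3 had replicate 1 peaks of up to 2.21, 2.21 and 1.83, some of them counted for 2 genes at once, and no replicate 2 peak.

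In the array of UGT73B genes on chromosome 4 all 3 members were counted. UGT73B3, a gene required for full resistance to an avirulent Pseudomonas syringae strain, and UGT73B2 shared 1 peak in the space between them, from 16344607 to 16345519 with 2.54 and 1.89. The replicate 1 summit was 20 bp outside UGT73B2 and 312 bp outside UGT73B3, and the replicate 2 summit was 127 bp inside UGT73B2. UGT73B1 (AT4G34138) had 2.88 and 2.47 from a peak at 16349808 to 16350920. Its replicate 1 summit was 366 bp outside UGT73B1 and 107 bp inside AT4G34140, while the replicate 2 summit was 26 bp outside UGT73B1. The space from UGT73B1 to the next gene was -2100 bp, which means that their spans overlap. UGT73B5 (AT2G15480), which like UGT73B3 is linked to the response to Pseudomonas, had 2.287 and 1.897 from a summit 80 bp inside the gene on chromosome 2. In the gene table the span of UGT73B5 (5072 bp) reaches over its array partner UGT73B4, which had no summit of its own.

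UGT73C7 (AT3G53160), whose enzyme glucosylates hydroxycinnamic acids, and UGT73D1 form a pair on chromosome 3. UGT73C7 had a peak from 19701980 to 19702795 with 2.69 and 2.14 and its summit 9 bp inside the lower end. UGT73D1 had no summit within 500 bp, although a further shared summit lay in the space of 2939 bp between the pair. UGT76E2 (1.86 and 2.19) and UGT76E12 (1.45 and 1.65) were counted through summits 265 and 356 bp outside, which lay nearer to other genes, while their array partners UGT76E1 and UGT76E11 had no shared peak.

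Few shared summits lay in the spaces between directly adjacent genes with a UGT symbol. Of 16 such spaces 2 held one (12.5%, 3.50 to 36.0), against 22.6% of the spaces between other protein-coding genes when weighted to the same lengths, which is 3.61 spaces. Replicate 1 summits lay in 6 of the 16 (37.5%, against 43.1%) and replicate 2 summits in 1 (6.25%, 1.11 to 28.3, against 25.8%). Spaces with a gene of UGT symbol on 1 side only held a shared summit in 14 of 73 (19.2%, 11.8 to 29.7), against 20.7%, and include the space between UGT73C6 and DOGT1, which is UGT73C5 by synonym. With 16 spaces a shortfall cannot be told from counting error for shared summits.

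**Figure D3:**
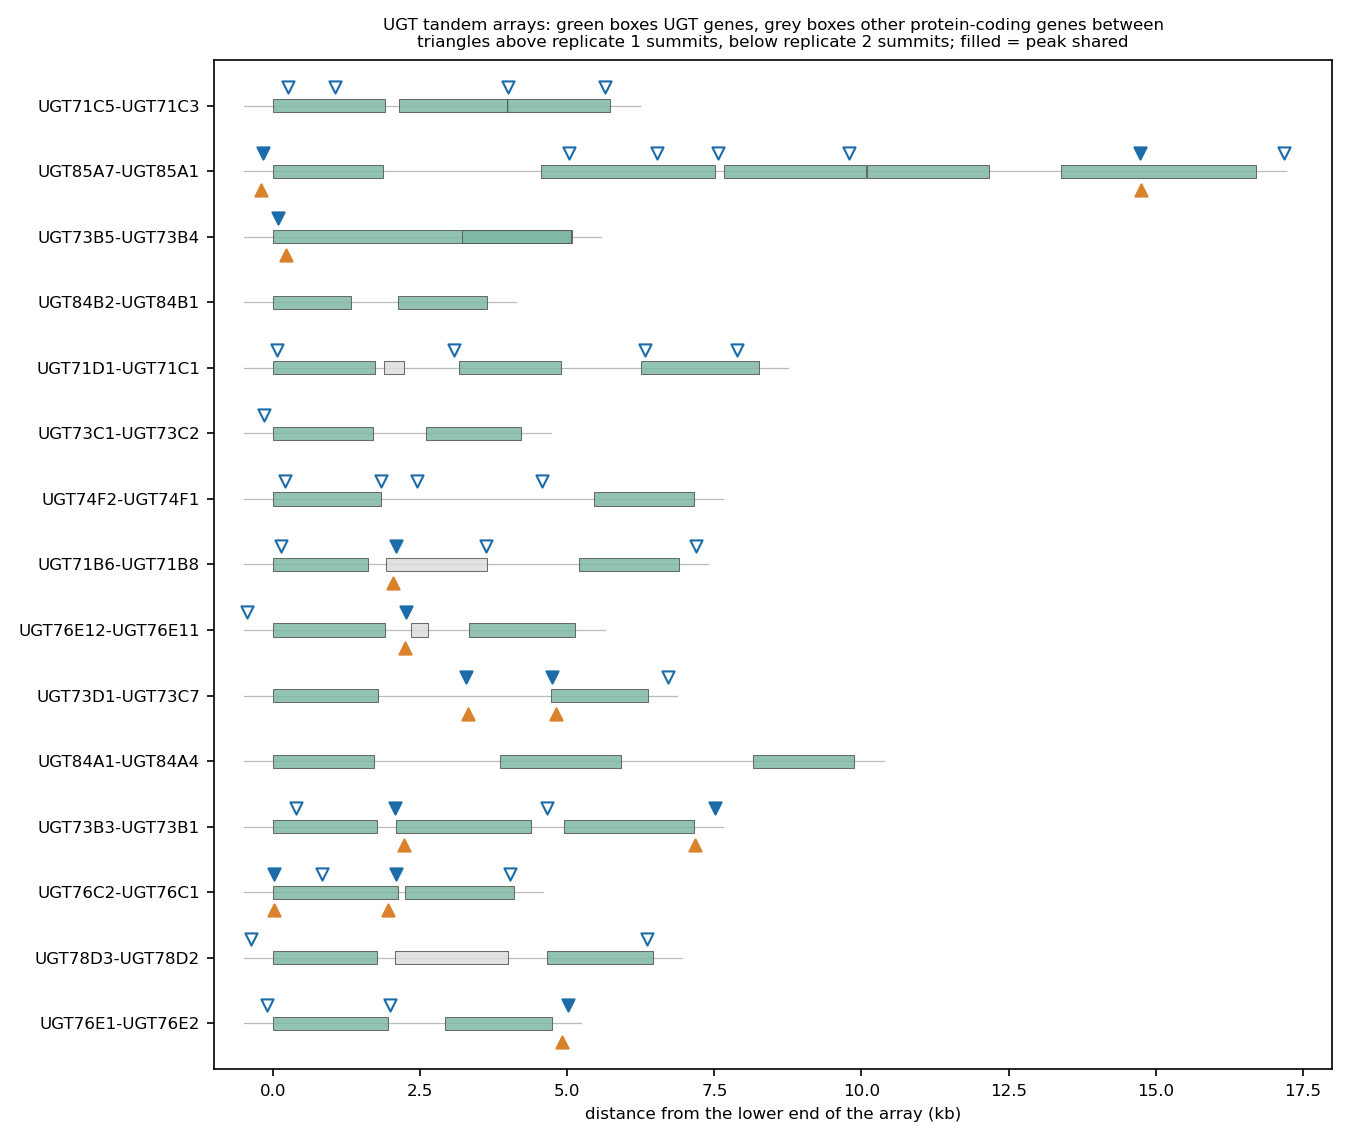
The 15 UGT tandem arrays drawn to scale from their lower end (horizontal axis, kb). Green boxes are genes with a UGT symbol and grey boxes are genes without a UGT symbol between them. Triangles above mark replicate 1 summits and triangles below mark replicate 2 summits, filled where the peak is shared. The UGT84 arrays carry no triangle, and the UGT85A array has filled triangles at its outer genes.

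Where summits lay relative to the genes was examined for all 26 pairs of a UGT gene and a shared summit, which come from 24 peaks. In 12 pairs the summit was inside the gene and in 14 outside (46.2% inside, against 41.3% of 11048 pairs over all genes). The median distance to the nearest end was 257 bp for UGT genes and 141 bp for all genes. For summits outside the gene it was 298 and 151 bp. The UGT medians rest on few pairs, and the differences were not tested. In 8 of the 26 pairs (30.8%) another gene was nearer to the summit, against 23.1% over all genes. UGT75B1 (AT1G05560) is such a case, since its better peak (2.13 and 2.18, chromosome 1 from 1647070 to 1647947) had its summit 283 bp outside and 143 bp inside CALS1, a callose synthase gene. A further shared peak of UGT75B1, with 2.10 and 1.92, had its summit 157 bp inside. UGT88A1 (AT3G16520) had both of its shared peaks inside, with 1.82 and 1.66 at 131 bp from the higher end and 1.72 and 2.32 at 332 bp from an end. Among the genes seen in replicate 1 alone and not named so far, those of the UGT71C family apart, the best peaks ranged from 1.64 at UGT76D1 to 1.97 at UGT75B2, with UGT73C1 at 1.72, UGT71B8 at 1.84 and UGT71D1 at 1.94.

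**Figure D4:**
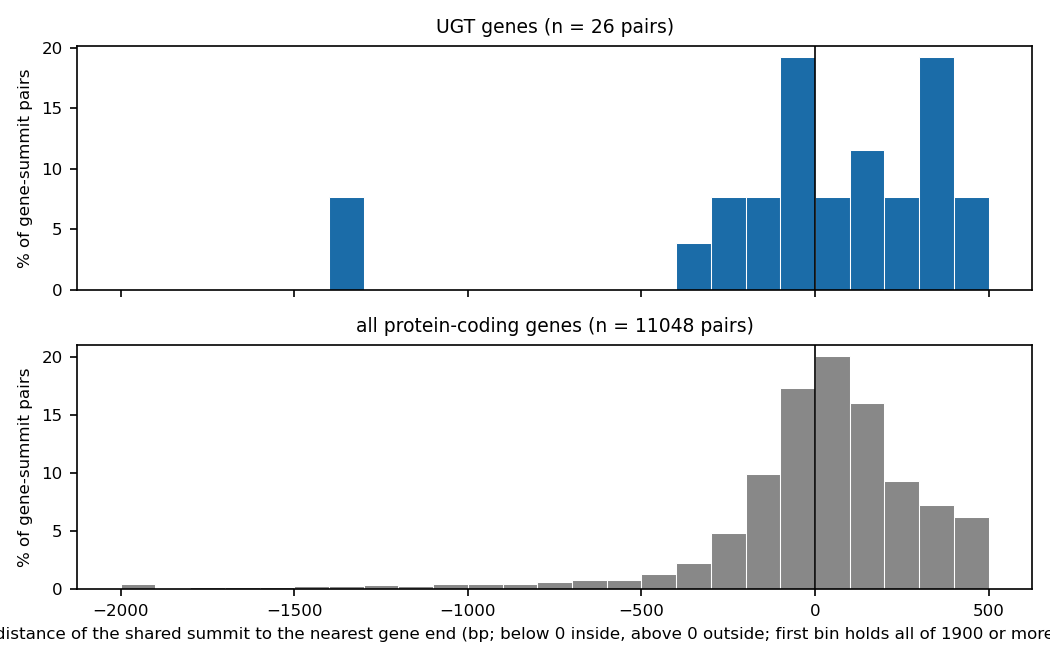
Distance of shared summits to the nearest gene end in bins of 100 bp (horizontal axis, below 0 inside the gene) as a percentage of gene-summit pairs, for 26 UGT pairs above and 11048 pairs of all protein-coding genes below. The pairs of all genes pile up at the gene end and thin out towards 500 bp. The UGT pairs are few, with 5 in the bin just inside the end and 5 from 300 to 400 bp outside. UGT85A1 and UGT74D1 lie apart on the left.

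UGT genes are short and alike in length, with a median of 1843 bp (range 1317 to 5072) against 2078 bp for all protein-coding genes. The number of protein-coding genes within 50 kb on either side had a median of 27 for UGT genes and for all genes. The 22 genes with a shared peak had closer neighbours, with a median of 1099 bp for the spaces on both sides together, than the other UGT genes with 1850 bp. Over all genes the medians were 1587 bp with a shared peak and 1886 bp without. This was not tested, and overlapping neighbours count as negative spaces.

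Other families of detoxifying and specialised metabolism had shared peaks below their matched-length shares, but only the cytochrome P450 interval lay wholly below its matched share. In replicate 1 alone the families went both ways. Cytochromes P450, which often make the hydroxyl group that a UGT then glycosylates, had a shared peak at 49 of 229 genes (21.4%, 16.6 to 27.2), against 37.9% at matched length. Glutathione transferases, another class of conjugating enzymes, had 12 of 47 (25.5%, 15.3 to 39.5, against 30.4%). Beta-glucosidases, which can remove the glucose again, had 12 of 40 (30.0%, 18.1 to 45.4, against 41.5%). Replicate 1 summits were found at 37 glutathione transferase genes (78.7%, 65.1 to 88.01, against 61.2%), 19 beta-glucosidase genes (47.5%, 32.9 to 62.5, against 77.4%) and 129 P450 genes (56.3%, 49.9 to 62.6, against 73.1%). Replicate 2 summits lay near the matched share for 15 glutathione transferase genes (31.9%, against 32.9%) and 17 beta-glucosidase genes (42.5%, against 44.8%). For P450 genes they lay below it, at 54 genes (23.6%, against 40.9%). For shared peaks the interval of the UGT genes overlaps those of all 3 families, though only just that of the P450 genes. No test set the families apart.

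Genes that supply acceptors and donors for UGTs were taken from a fixed list. Of 22 phenylpropanoid and flavonoid enzymes 10 had a shared peak (45.5%, 26.9 to 65.3, against 38.6% at matched length). LDOX, the anthocyanidin synthase gene, had 2.62 and 2.35, C4H, the cinnamate hydroxylase gene, 2.28 and 1.93, and TT4, the chalcone synthase gene, 1.694 and 2.204. F3H, FLS1 and CYP98A3 had no summit in either list. Of 9 genes for sugar donors 5 had a shared peak (55.6%, 26.7 to 81.1, against 43.2%), with the UDP-rhamnose synthase gene MUM4 at 2.78 and 2.55 and the sucrose synthase gene SUS1 at 2.57 and 2.26. SUS2 and SUS4 had none.

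A further 6 protein-coding genes carry a UGT name only among their synonyms and were not counted as members. UGT72B1 (GT72B1 in the table), which acts on monolignols and chlorinated pollutants, had 2.205 and 2.51 from a summit 275 bp outside and 8 bp inside CPL3. UGT80A2 (SGT), the second sterol UGT, had 2 shared peaks, the better with 2.014 and 1.963 and its summit 145 bp outside. UGT79B1 (UF3GT), an anthocyanin xylosyltransferase, had 2.13 in replicate 1, and its match of 1.86 had the summit outside the window. UGT81A1 (MGD1), a galactolipid synthase gene rather than a small-molecule UGT, had 1.88 and 1.75. UGT73C5 (DOGT1), which acts on brassinosteroids and the toxin deoxynivalenol, had 1.45 in replicate 1 alone, and UGT79B6 had none. With these 6 genes the count was 26 of 64 (40.6%, against 35.6% at matched length).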

How the data were processed

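Peak lists of 2 immunoprecipitates were used; the input has no values used here. The submitters' processing notes name Trimmomatic 0.38, Bowtie2 2.3.5, SAMtools 1.9, MACS2 2.2.7.1 and TAIR10, without roles or settings. The authors deposited 1 list per immunoprecipitate, not pooled. Each deposited peak has a whole-number score made from its q value, a fold enrichment (a ratio) and −log10 p and −log10 q values, the lowest −log10 q being 1.30 in each list. Without a header, columns were taken in narrowPeak order, and no filter on low values was applied.

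Summits were placed in gene spans of the RefSeq table of TAIR10.1, whose coordinates are not printed because the notes name TAIR10. Shifting all shared summits along the chromosomes by multiples of 50 bp gave the lowest percentage inside genes at 0, so summits and spans are in register at that scale. Background fragments were solved from fold and p-value under the MACS2 ratio with 1 added to both terms and a Poisson tail. Matched-length shares average the shares of other genes over 20 length bins. Shares have 95% Wilson intervals. With 1 group there is no contrast to test, and no chance test was made. Python 3.11.15, pandas 2.3.3 and numpy 2.4.6 were used, and the code was tested on simulated peaks.

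The members and lists were chosen with earlier results of these data known. Genes are named by rule: the 12 best shared peaks by the worse rank, arrays of at least 4 genes, the 2 longest genes without a summit, and 15 genes of known role; other genes were picked with their values in view. The grouping by acceptor role was drawn up after the peak lists had been opened. Alternatives varied the window, threshold, overlap, member and array rules, length bins and replicates.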

Additional observations from a re-analysis of the deposited data

How the results depend on the processing

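No paired analysis was possible because the study has 1 immunoprecipitated group and no second group with peaks. With summits inside the gene only, 10 UGT genes had a shared peak (4 in arrays, 6 single). The ratio of the UGT share to the matched-length share was then 1.10, against 1.07 as reported. Replicate 1 summits lay inside 23 genes (39.7%, against 36.05% of all genes) and replicate 2 summits inside 10 (17.2%, against 17.0%). Keeping only peaks with a −log10 q from 5 up left 9 (15.5%, against 12.5% of all genes), with a ratio of 1.18. These were 5 in arrays (13.5%, against 12.9% at matched length) and 4 single (19.05%, against 13.5%). Replicate 2 summits then lay at 8 genes (13.8%, against 13.55% of all genes). Asking for 50% overlap of each peak left 7 (12.1%, against 16.7% of all genes), with a ratio of 0.673. These were 4 in arrays (10.8%, against 17.8% at matched length) and 3 single (14.3%, against 18.1%). A window of 250 bp left 7 array genes (18.9%, against 30.2% at matched length), with a ratio of 0.849 over all 58 genes. Counting only the nearest gene left 6 array genes (16.2%, against 28.5%), with a ratio of 0.961 over all 58. The ratio was 1.05 with an overlap of at least 1 bp and 1.14 with synonyms. Fewer peaks or places qualify under the stricter rules by construction. Summits of 1 replicate alone, which leaves out the other, gave 22 to 41 genes, 12 to 27 in arrays and 10 to 14 single, with ratios from 0.988 to 1.005; the larger counts came from replicate 1. The other counts stayed within 1.5 times. Weaker enrichment than the deposited lists hold is not seen.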

Other observations

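Widening the window from 500 to 1000 bp raised the share of UGT genes with a shared summit from 37.9% to 44.8%. Over all protein-coding genes the share rose from 34.2% to 40.8%. Of the 36 UGT genes without a shared peak, 4 had a shared summit between 500 and 1000 bp away. Besides UGT76B1 and UGT74F2 these were UGT72B3, with a summit 615 bp outside (1.57 in replicate 1 and 1.53 in replicate 2) that lay within 500 bp of TBL25, and UGT73C6, with a summit 890 bp outside (1.72 and 2.13) within 500 bp of AT2G36780. The UGT71C genes form parts of 2 arrays on chromosomes 1 and 2. All 5 had replicate 1 peaks, against 66.7% of all genes, the best of each ranging from 1.504 at UGT71C1 to 2.084 at UGT71C2. None had a replicate 2 peak, against 37.0% of all genes. The only peak of UGT71C4 was also counted for UGT71C3. With 5 genes no trait of the family can be read from these counts, which were not tested.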
